A study of Mus musculus with 32 samples.

Results

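The 10 genes described here encode the NF-kB subunits and the proteins that hold NF-kB in check or release it. They are the subunit genes Nfkb1, Nfkb2, Rela, Relb and Rel, the inhibitor genes Nfkbia, Nfkbib and Nfkbie, the kinase gene Ikbkb and the feedback inhibitor gene Tnfaip3. They were chosen by name, and each matched 1 of the 55414 gene identifiers in the count table. RNA was taken from whole mouse embryos that had been freed of their yolk sacs, at 1 of 3 stages, E8.5, E9.5 or E10.5, where E stands for embryonic day. Commd10Null embryos are homozygous for an insertion of the Vav1-iCre transgene within an intron of Commd10 (strain B6.Cg-Commd10Tg(Vav1-icre)A2Kio/J), and WT embryos carry no insertion. Both came from crosses between heterozygous littermates, so the Commd10Null embryos also carry a Cre transgene under the Vav1 promoter, which is active in blood cells. The study describes the Commd10Null embryos as abnormal and retarded in growth at E8.5, and as degrading with signs of resorption at E9.5 and E10.5. At a given day, genotype therefore cannot be told apart from delayed development or tissue breakdown in these comparisons. There were 3 Commd10Null and 10 WT libraries at E8.5, 3 Commd10Null and 9 WT libraries at E9.5, and 3 Commd10Null and 4 WT libraries at E10.5. Whether a library holds 1 embryo, and which embryos were littermates, was not stated in the labels or the methods, so p-values measure the spread between these libraries.

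NF-kB transcription factors are dimers of the Rel family. In resting cells IkB proteins, the products of Nfkbia, Nfkbib and Nfkbie among others, bind the dimers and keep them in the cytoplasm. When TNF receptors, interleukin receptors or Toll-like receptors are engaged, the IkB kinase complex, of which Ikbkb encodes a catalytic subunit, phosphorylates the IkB proteins, which are then ubiquitinated and degraded, and the freed dimers enter the nucleus. Dimers of RelA and the product of Nfkb1 carry this canonical route, while RelB paired with the product of Nfkb2 carries a slower, non-canonical route downstream of receptors such as the lymphotoxin beta receptor. Nfkbia, Nfkb2 and Tnfaip3 are themselves classical target genes and form feedback loops, and A20, the product of Tnfaip3, removes and edits ubiquitin chains on signalling proteins. COMMD proteins bind NF-kB subunits, and human COMMD1 takes part in the ubiquitination of RelA. In the mouse, loss of RelA, of the IkB kinase subunit encoded by Ikbkb or of its regulatory subunit is lethal during gestation, with death of liver cells.

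The libraries were 3′ tag libraries, in which a transcript gives a tag near its 3′ end, with 7025188 to 9069005 counts each. Values are given as CPM, the count of a gene relative to the total of its library, scaled by TMM factors over all 32 libraries. The insertion is in an intron, and its effect on the structure of the Commd10 transcript was not examined. Commd10 tags were higher in Commd10Null libraries at each stage, without overlap. At E8.5 their level was 86.5 to 93.9 CPM in Commd10Null and 36.2 to 51.5 CPM in WT libraries. It was 58.6 to 85.9 CPM and 39.1 to 55.6 CPM at E9.5, and 79.1 to 92.4 CPM and 46.3 to 50.6 CPM at E10.5. The cause of the higher level was not tested. By Western blot the study found no COMMD10 protein in Commd10Null embryos at E8.5. The 3 Commd10Null E9.5 libraries differed most among themselves, with a chi-square per gene of 38.7 to 81.6 between pairs, against 3.00 to 33.7 between WT E9.5 pairs. The summed level of 10 visceral and yolk sac endoderm markers was 184, 579 and 4735 CPM in Commd10Null E9.5 replicates 1, 2 and 3, against 38.5 to 146 CPM in WT E9.5 libraries. In WT E10.5 replicate 1 the same sum was 1137 CPM, against 69.5 to 77.3 CPM in the other 3 WT E10.5 libraries. The comparisons at E9.5 were therefore also run without each Commd10Null replicate, and that at E10.5 without WT replicate 1.

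**Figure D1:**
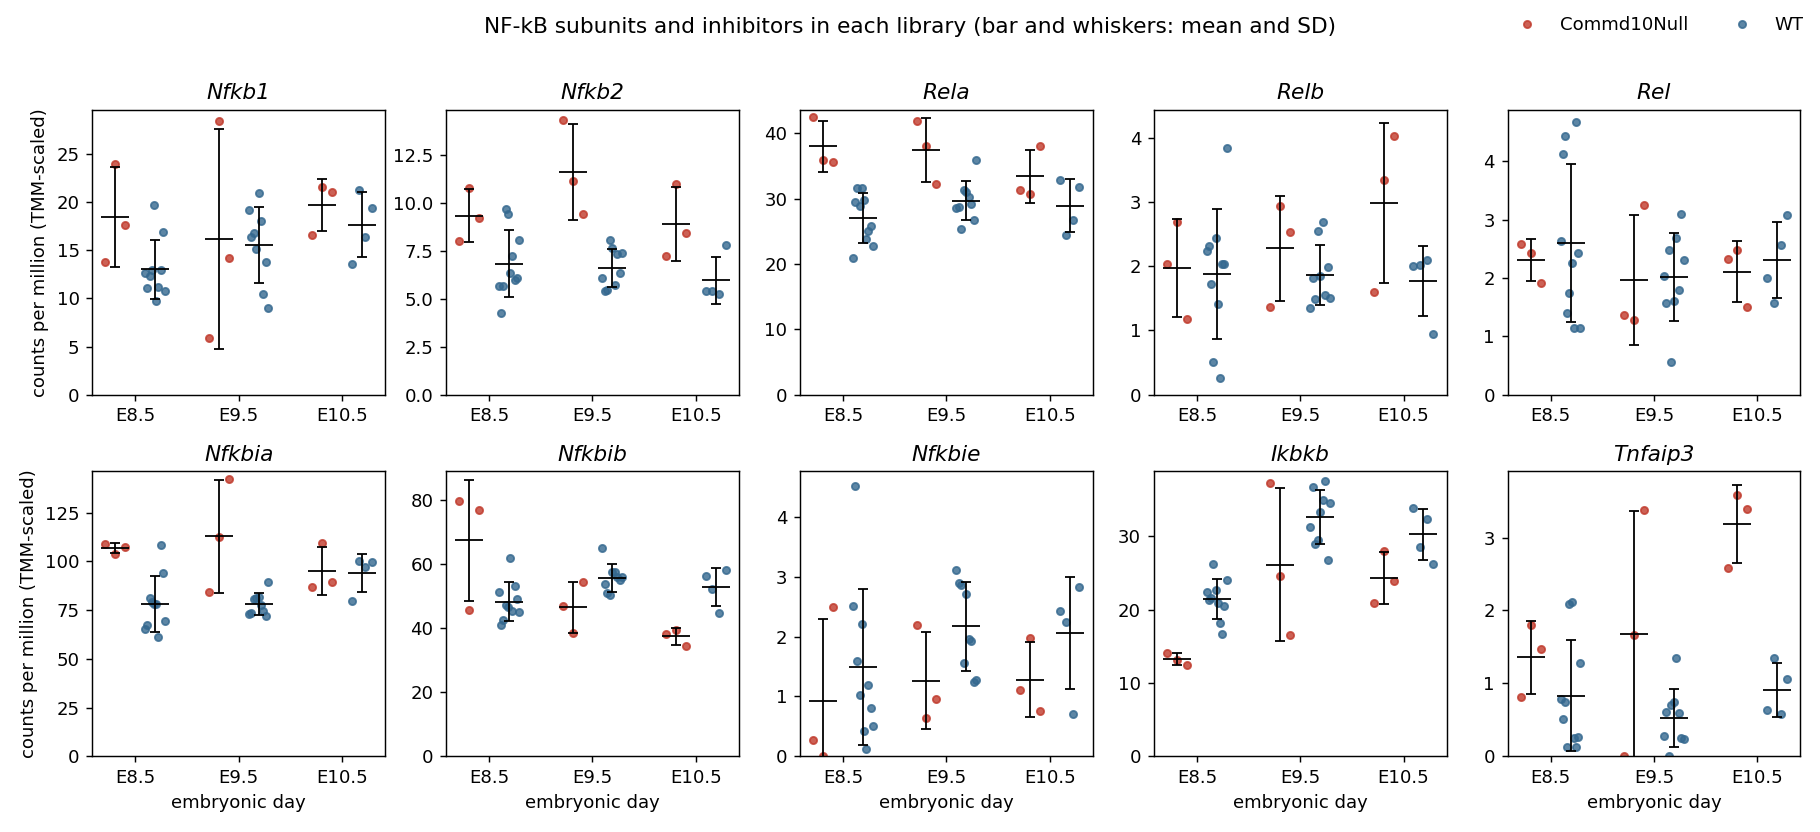
Level of each of the 10 genes in every library, in CPM, by embryonic day, with Commd10Null in red to the left of WT in blue and the mean and SD in black. All 3 Commd10Null libraries lay above all WT libraries for Rela at E8.5, Nfkb2 at E9.5 and Tnfaip3 at E10.5, and below them for Ikbkb at E8.5 and Nfkbib at E10.5. The share of all genes whose groups did not overlap was not computed, so this only describes the libraries.

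At E8.5, 3 of the 10 genes rose in Commd10Null embryos (Rela, Nfkbia and Nfkbib) and 1 fell (Ikbkb). The test was the quasi-likelihood test of edgeR, with p-values adjusted by Benjamini-Hochberg over all genes tested and a threshold of 0.05. Of the 13799 genes tested at this stage 6.73% were called higher and 6.86% lower. At E9.5, 3 of 10 rose (Nfkb2, Rela and Nfkbia) and 0 fell, where 20.2% of all genes were called higher and 17.4% lower. At E10.5, 1 of 10 rose (Tnfaip3) and 1 fell (Nfkbib), where 20.9% of all genes were called higher and 21.4% lower. Without scaling factors 33.5% of all calls at E9.5 and 35% of those at E10.5 were higher, against 53.7% and 49.4% with them. The median log2 fold change of the 10 genes was 0.44 at E8.5, 0.21 at E9.5 and 0.09 at E10.5, and that of all genes tested was -0.02, 0.02 and 0.01. Tnfaip3 at E10.5 was the 1 difference of the 9 called that reached a log2 fold change of 1 in size. It passed the filter on low counts there through the Commd10Null libraries, so it could hardly have been called lower.

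**Figure D2:**
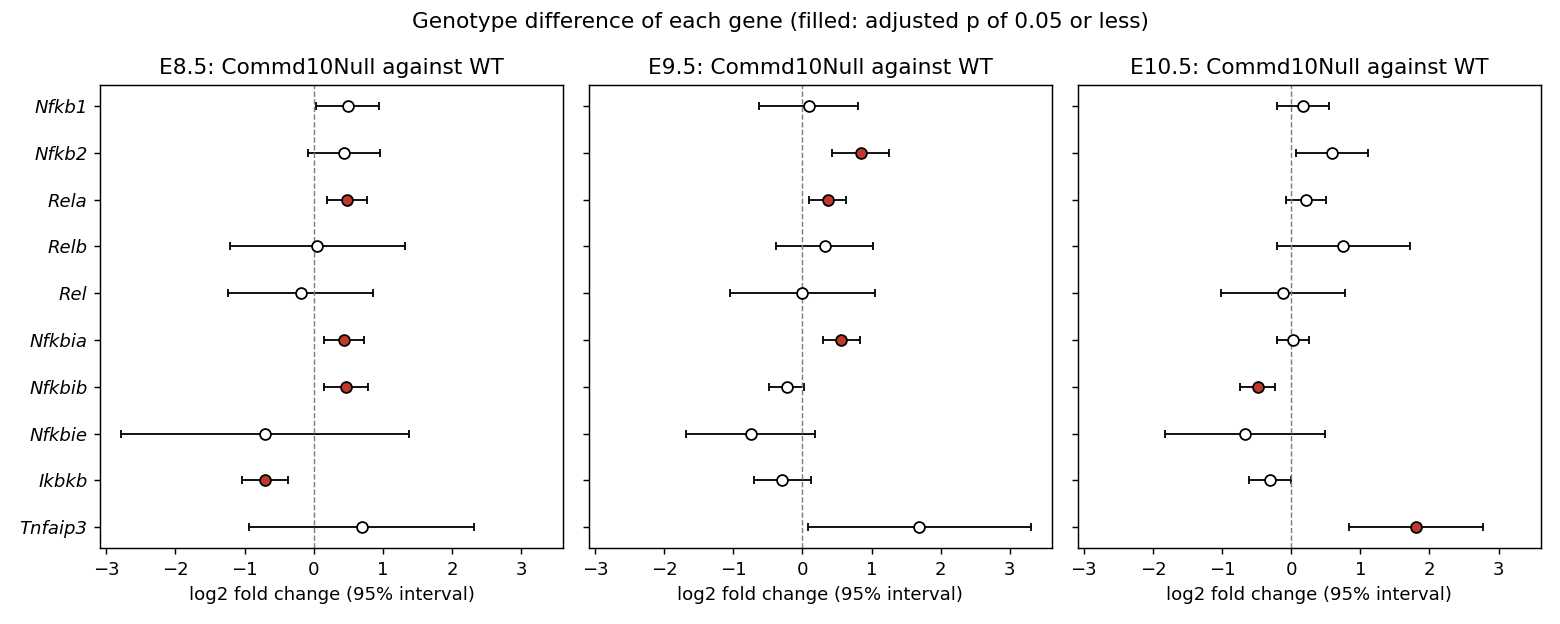
Log2 fold change of each gene, Commd10Null against WT, at the 3 stages, with 95% intervals; filled points passed at an adjusted p of 0.05 or less. Of the 30 values 9 passed, and the intervals of Relb, Rel, Nfkbie and Tnfaip3, the genes with the fewest counts, are the widest at E8.5 and E10.5.

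Rela (chr19:5637483-5648130, plus strand, GRCm38 as are all gene positions given here) encodes the transactivating subunit of the canonical dimer and was higher in Commd10Null embryos at E8.5 and E9.5. At E8.5 it stood at 42.5, 35.9 and 35.6 CPM in the Commd10Null libraries, against a lowest, median and highest of 21.0, 27.3 and 31.7 CPM in the 10 WT libraries. Every Commd10Null library lay above every WT library, with a log2 fold change of 0.48 ± 0.14 (SE; edgeR adjusted p = 0.0281). At E9.5 the Commd10Null libraries had 42.0, 38.1 and 32.2 CPM and the 9 WT libraries 25.4 to 35.9 CPM with a median of 29.2 CPM. Here 1 Commd10Null library lay within the WT range, and the log2 fold change was 0.36 ± 0.12 (SE; edgeR adjusted p = 0.0312). At E10.5 Rela had 31.3, 30.8 and 38.1 CPM in Commd10Null against 32.8, 24.4, 26.7 and 31.8 CPM in WT libraries, overlapping groups with a log2 fold change of 0.21 (95% interval -0.08 to 0.51). The difference at E8.5 missed the threshold without Commd10Null replicate 1 (adjusted p = 0.183) or 3 (0.0682), and that at E9.5 without Commd10Null replicate 1 (0.123) or 2 (0.0678), or without WT replicate 1 (0.0538), 2 (0.0539) or 8 (0.0531). Without scaling factors the E9.5 value was 0.17 (edgeR adjusted p = 0.329), while without Commd10Null replicate 3 it was 0.46 (adjusted p = 0.013). With the replicate number as a block both calls missed the threshold (edgeR adjusted p = 0.161 at E8.5 and 0.306 at E9.5). The replicate number comes from the sample titles. In the block model, WT libraries whose number no Commd10Null library shares add nothing to the difference, so it rests on far fewer libraries.

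Nfkb1 (chr3:135584655-135691547, minus strand) encodes p105, which is processed to the p50 subunit and in its uncut form acts as an IkB. It passed the test at none of the stages by edgeR. At E8.5 it had 13.7, 24.0 and 17.6 CPM in Commd10Null libraries, against 9.73 to 19.7 CPM with a median of 12.5 CPM in WT libraries, and a log2 fold change of 0.49 (unadjusted p = 0.0359, adjusted p = 0.137 by edgeR). Its 3 Commd10Null E9.5 libraries spread from 5.88 CPM in replicate 1 to 28.4 CPM in replicate 2, on both sides of the WT range of 9.00 to 20.9 CPM. The log2 fold change at E9.5 was 0.09 (95% interval -0.63 to 0.81), 0.48 without replicate 1 and -0.59 without replicate 2, so its sign turned with 1 library. At E10.5 it was 0.17 (95% interval -0.21 to 0.54).

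Nfkb2 (chr19:46304320-46312385, plus strand) encodes p100, the precursor of p52 and the main inhibitor of RelB. Its level was 14.3, 11.1 and 9.41 CPM in the Commd10Null E9.5 libraries, against a lowest, median and highest of 5.43, 6.33 and 8.06 CPM in WT E9.5 libraries. All 3 lay above all 9. A log2 fold change of 0.84 ± 0.19 (SE; edgeR adjusted p = 0.00307) was found, and it passed with each library left out in turn, between 0.66 without Commd10Null replicate 1 and 0.97 without replicate 3. With the replicate number as a block it was 1.05 and missed the threshold (edgeR adjusted p = 0.179). At E8.5 Nfkb2 had 8.01, 10.8 and 9.23 CPM in Commd10Null libraries and 4.25 to 9.70 CPM in WT libraries, with a log2 fold change of 0.44 (edgeR adjusted p = 0.251). At E10.5 it had 7.25, 11.0 and 8.42 CPM in Commd10Null libraries, against 5.38, 5.40, 5.25 and 7.80 CPM in WT libraries. Those groups overlapped only through WT replicate 4, and the log2 fold change of 0.59 missed the threshold (edgeR adjusted p = 0.0675). Without WT replicate 4 it was 0.72 (adjusted p = 0.039), and without Commd10Null replicate 1 it was 0.71 (adjusted p = 0.046).

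The promoter of Nfkb2 is shown because Nfkb2 is a classical NF-kB target gene whose groups did not overlap at E9.5. A promoter here is the window of 250 bases before to 50 after a transcript start in RefSeq (GRCm38.p6), and capitals mark matches to the kappa B consensus on either strand, with overlapping matches counted as 1.
Nfkb2 promoter, chr19:46304487-46304786, plus strand: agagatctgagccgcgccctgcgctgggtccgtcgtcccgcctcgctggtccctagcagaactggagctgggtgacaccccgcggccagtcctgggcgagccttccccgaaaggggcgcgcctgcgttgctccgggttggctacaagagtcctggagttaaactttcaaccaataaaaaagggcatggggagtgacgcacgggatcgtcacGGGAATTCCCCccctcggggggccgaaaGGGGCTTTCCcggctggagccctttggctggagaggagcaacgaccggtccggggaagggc
The window holds 2 matches, GGGAATTCCCC starting 39 bases before the start site, which joins overlapping matches on both strands, and GGGGCTTTCC starting 11 bases before it. Of 32851 such windows of mouse genes 8.46% held at least 1 match and 0.521% held 2 or more. The other 2 starts of Nfkb2 share the match GGGACTTTCC, which lies in both windows, and 1 of those windows also holds GGAATGTCCC on the opposite strand. Windows were found for 7 of the 10 genes, not for Nfkb1, Relb and Ikbkb, and 5 of the 7 held a match: Nfkb2, Rel, Nfkbia, Nfkbie and Tnfaip3. Counted by window, as the share of 8.46% is, 7 of their 10 windows held a match. The match of Nfkbia, GGAAATTCCC on the opposite strand, starts 29 bases before the start site. The windows of Rela and Nfkbib held none, which says only that these letters are not within them. A match is a description of the sequence, and no binding was measured.

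Relb (chr7:19606217-19629438, minus strand) and Rel (chr11:23736847-23770970, minus strand) had few counts, 515 and 582 in all 32 libraries together, and passed no test. Relb, the partner of p52, had 1.60, 3.34 and 4.02 CPM in Commd10Null E10.5 libraries, against 2.00, 2.03, 2.10 and 0.946 CPM in WT E10.5 libraries. Its log2 fold change there was 0.75, with a 95% interval of -0.21 to 1.72, and it did not pass (edgeR adjusted p = 0.195). Rel encodes c-Rel, the subunit best known from lymphocytes. Its levels of 1.28 to 3.26 CPM in Commd10Null and 0.566 to 4.68 CPM in WT libraries overlapped at every stage, with log2 fold changes of -0.18 at E8.5, -0.00014 at E9.5 and -0.12 at E10.5.

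Nfkbia (chr12:55489410-55492647, minus strand) encodes IkB alpha, the inhibitor that NF-kB itself induces and that is degraded and resynthesised fastest. At E8.5 its level was 109, 104 and 107 CPM in Commd10Null libraries, against a lowest, median and highest of 61.1, 78.2 and 108 CPM in WT libraries. WT replicate 8, the highest, lay within the Commd10Null range and the other 9 WT libraries below it. Its log2 fold change of 0.44 ± 0.14 was just past the threshold (SE; edgeR adjusted p = 0.0441). It passed in the fits without WT replicate 6, 8 or 9, and missed the threshold in the other 10 of the 13 fits that left out 1 library, each Commd10Null library included, with adjusted p between 0.0516 and 0.157. At E9.5 the Commd10Null libraries had 84.2, 113 and 142 CPM, against 71.8 to 89.3 CPM in WT libraries with a median of 77.4 CPM. Replicate 1 lay within the WT range and the others above it. Here the log2 fold change was 0.56 ± 0.12 (SE; edgeR adjusted p = 0.00246), 0.73 without Commd10Null replicate 1 (adjusted p = 6.83e-05) and 0.36 without replicate 3 (adjusted p = 0.0241). With the replicate number as a block it was 0.58 and missed the threshold (edgeR adjusted p = 0.154). At E10.5 the levels were 86.7, 109 and 89.7 CPM in Commd10Null and 79.8, 100.4, 97.2 and 99.8 CPM in WT libraries, with a log2 fold change of 0.02 (95% interval -0.21 to 0.25).

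Nfkbib (chr7:28758251-28767512, minus strand) encodes IkB beta, an inhibitor that is degraded more slowly, and it was the 1 gene of the 10 with calls in opposite directions. At E8.5 it had 79.8, 45.7 and 76.8 CPM in Commd10Null libraries, against a lowest, median and highest of 41.1, 46.9 and 62.0 CPM in WT libraries. Replicates 1 and 3 lay above all WT libraries and replicate 2 within their range. Its log2 fold change of 0.47 ± 0.15 (SE; edgeR adjusted p = 0.0451) passed in the fits without WT replicate 6 or 8 or Commd10Null replicate 2 and in none of the other 10 fits without 1 library. Without Commd10Null replicate 1 it was 0.34 (adjusted p = 0.284), and without replicate 3 it was 0.36 (adjusted p = 0.22). At E9.5 Nfkbib had 47.0, 38.4 and 54.3 CPM in Commd10Null libraries, against 50.2 to 65.1 CPM in WT libraries with a median of 56.1 CPM. This gave a log2 fold change of -0.23 (edgeR adjusted p = 0.142), -0.36 without Commd10Null replicate 3 (adjusted p = 0.0304) and -0.43 without scaling factors (adjusted p = 0.00962). At E10.5 it had 38.3, 39.5 and 34.5 CPM in Commd10Null libraries, against 56.1, 52.1, 44.8 and 58.0 CPM in WT libraries. All 3 lay below all 4, and the log2 fold change of -0.49 ± 0.12 (SE; edgeR adjusted p = 0.00373) passed with each library left out in turn, between -0.56 and -0.43.

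Whether the genotype difference changed with stage was asked by an interaction term, fitted by edgeR over the 32 libraries. Nfkbib was the 1 gene of the 10 that passed, with a genotype difference more negative than at E8.5 by a log2 value of -0.74 ± 0.18 at E9.5 (SE; edgeR adjusted p = 0.00837) and of -0.98 ± 0.20 at E10.5 (adjusted p = 0.000788). Of the 15057 genes in this model 6.24% were called more positive and 4.9% more negative at E9.5. At E10.5 10.3% were called more positive and 8.29% more negative. Both interactions use the E8.5 libraries, so they are not independent. Without Commd10Null E8.5 replicate 1 the value at E9.5 was -0.60 (adjusted p = 0.0516), while that at E10.5 passed with each library left out. For the other 9 genes the interaction did not pass at either stage. Nfkbia at E10.5 had the smallest p of these, with -0.43 (95% interval -0.84 to -0.03, edgeR adjusted p = 0.132). At E9.5 Ikbkb passed without Commd10Null E9.5 replicate 3 (0.62, adjusted p = 0.0447) and Nfkb1 without Commd10Null E9.5 replicate 2 (-1.12, adjusted p = 0.0486).

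Nfkbie (chr17:45555703-45563169, plus strand) encodes IkB epsilon and had 426 counts in all libraries together. It was at 0.272, 0 and 2.49 CPM in Commd10Null E8.5 libraries, against 0.127 to 4.51 CPM in WT E8.5 libraries. The 0 counts of Commd10Null replicate 2 allow a level of up to 0.384 CPM (3 counts, for counting error only). Its log2 fold changes, -0.71 at E8.5, -0.75 at E9.5 and -0.67 at E10.5, were negative at each stage and passed at none (edgeR adjusted p = 0.681, 0.196 and 0.347). Without Commd10Null E9.5 replicate 1, at 2.19 CPM the highest of its group, the E9.5 value was -1.39 (adjusted p = 0.0352).

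Ikbkb (chr8:22659212-22706589, minus strand) encodes IKK beta, the kinase that marks IkB proteins for degradation in the canonical route. At E8.5 it had 14.1, 13.1 and 12.5 CPM in Commd10Null libraries, against a lowest, median and highest of 16.7, 21.4 and 26.2 CPM in WT libraries. Every Commd10Null library lay below every WT library. Its log2 fold change was -0.71 ± 0.16 (SE; edgeR adjusted p = 0.00908), and it passed under each of the 21 other settings, between -0.75 and -0.67. At E9.5 the Commd10Null libraries had 37.3, 24.5 and 16.5 CPM, a spread wider than that of the WT libraries, which had 26.8 to 37.6 CPM with a median of 33.2 CPM. The log2 fold change of -0.29 missed the threshold (edgeR adjusted p = 0.253). Without replicate 1, the library within the WT range, it was -0.65 (adjusted p = 0.00642), and without replicate 3 it was -0.05 (adjusted p = 0.83). At E10.5 Ikbkb had 20.9, 27.9 and 23.9 CPM in Commd10Null libraries, against 33.9, 28.5, 32.3 and 26.2 CPM in WT libraries, and its log2 fold change was -0.31 (edgeR adjusted p = 0.0931). It passed there without Commd10Null replicate 2 (-0.43, adjusted p = 0.0364) or WT replicate 4 (-0.39, adjusted p = 0.0465), and without scaling factors (-0.45, adjusted p = 0.0213).

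Ikbkb also had the largest of the 3 called steps between stages. Among WT libraries it rose to 26.8 to 37.6 CPM at E9.5, against 16.7 to 26.2 CPM at E8.5, with no overlap and a log2 fold change of 0.59 ± 0.09 (SE; edgeR adjusted p = 6.42e-06). Among Commd10Null libraries all 3 at E9.5 also lay above all 3 at E8.5, with a log2 fold change of 0.97 (95% interval 0.17 to 1.76) that did not pass adjustment (unadjusted p = 0.023, adjusted p = 0.9). In the order of the 6 group means, Commd10Null E8.5 came lowest at 13.2 ± 0.842 CPM and WT E9.5 highest at 32.6 ± 3.70 CPM (SD, n = 3 and 9). The lowest group did not overlap with its neighbour, WT E8.5 at 21.4 ± 2.71 CPM (n = 10), while every other pair of neighbours in the order overlapped. By the root mean square difference of centred log2 group means over the 6 groups, the genes of 15056 compared whose pattern was most like that of Ikbkb were Ephb2 (0.07), Zfp397 (0.08) and Sowahc (0.08).

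The steps between stages otherwise changed few of the 10 genes. From E8.5 to E9.5 in WT embryos 2 of the 9 genes tested rose, Ikbkb and Nfkbib (0.19 ± 0.07, edgeR adjusted p = 0.0361), and 0 fell, where 25.3% of all 12718 genes were called higher and 25.9% lower. From E9.5 to E10.5 in WT embryos 1 of 9 rose, Nfkbia (0.27 ± 0.08, edgeR adjusted p = 0.0114), and 0 fell, where 13% of all genes were called higher and 13.4% lower. That call was lost without WT E10.5 replicate 2 (0.24, adjusted p = 0.0571). In Commd10Null embryos 0 of 9 genes passed edgeR's test from E8.5 to E9.5, where 0% of all genes were called higher and 0% lower (661 had an unadjusted p under 0.05 and DESeq2 called 60), and 0 of 9 from E9.5 to E10.5, where 0.0232% were called higher and 0.00775% lower (1409 with an unadjusted p under 0.05, and 355 calls by DESeq2). DESeq2 also called 0 of the 10 genes in both steps, and 1 of them had an unadjusted edgeR p under 0.05 in the earlier step and 0 in the later one. Tnfaip3 did not pass the filter on low counts in the WT steps and Nfkbie not in the Commd10Null steps. These steps share libraries with each other and with the genotype comparisons.

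Tnfaip3, the A20 gene (chr10:19000910-19015657, minus strand), had the fewest counts of the 10 genes, 283 in all, and the largest fold change. At E10.5 it had 2.58, 3.58 and 3.40 CPM in Commd10Null libraries, from 21, 29 and 27 counts, against 0.633, 1.35, 0.583 and 1.06 CPM in WT libraries, from 6, 12, 5 and 9 counts. All 3 lay above all 4. At this stage Tnfaip3 passed the filter on low counts through the Commd10Null libraries, since most WT libraries had fewer than 10 counts. A call of lower was therefore hardly possible. The log2 fold change was 1.80 ± 0.45 (SE; edgeR adjusted p = 0.00502), and it passed with each library left out in turn, between 1.65, the value without WT replicate 1, and 2.06. In the model of all 32 libraries, which shares 1 estimate of the spread over stages, the value was 1.80 as well but the adjusted p was 0.13. At E9.5 the 3 Commd10Null libraries had 0, 1.66 and 3.38 CPM, and the 9 WT libraries 0 to 1.34 CPM with a median of 0.600 CPM. Replicates 2 and 3 lay above all WT libraries and replicate 1 had 0 counts, which allows a level of up to 0.410 CPM. The log2 fold change of 1.69 (95% interval 0.08 to 3.30) missed the threshold (edgeR adjusted p = 0.0926), was 2.25 without replicate 1 (adjusted p = 0.00875) and 0.69 without replicate 3 (adjusted p = 0.584). At E8.5 the levels were 0.815, 1.79 and 1.47 CPM in Commd10Null and 0.120 to 2.12 CPM in WT libraries, with a log2 fold change of 0.70 (edgeR adjusted p = 0.593).

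The first promoter window of Tnfaip3 is shown because this gene had the largest fold change.
Tnfaip3 promoter, chr10:19015361-19015660, minus strand: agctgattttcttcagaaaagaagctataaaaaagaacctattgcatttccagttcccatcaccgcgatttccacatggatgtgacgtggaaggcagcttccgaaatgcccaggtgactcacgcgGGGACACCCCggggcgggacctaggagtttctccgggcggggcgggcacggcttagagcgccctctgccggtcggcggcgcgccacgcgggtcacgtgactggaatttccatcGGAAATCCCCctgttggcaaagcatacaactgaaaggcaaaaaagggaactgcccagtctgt
It holds 2 matches to the kappa B consensus, GGGACACCCC starting 125 bases before the start site and GGAAATCCCC, on the opposite strand, starting 12 bases before it. The window at the other start of the gene holds none.

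**Figure D3:**
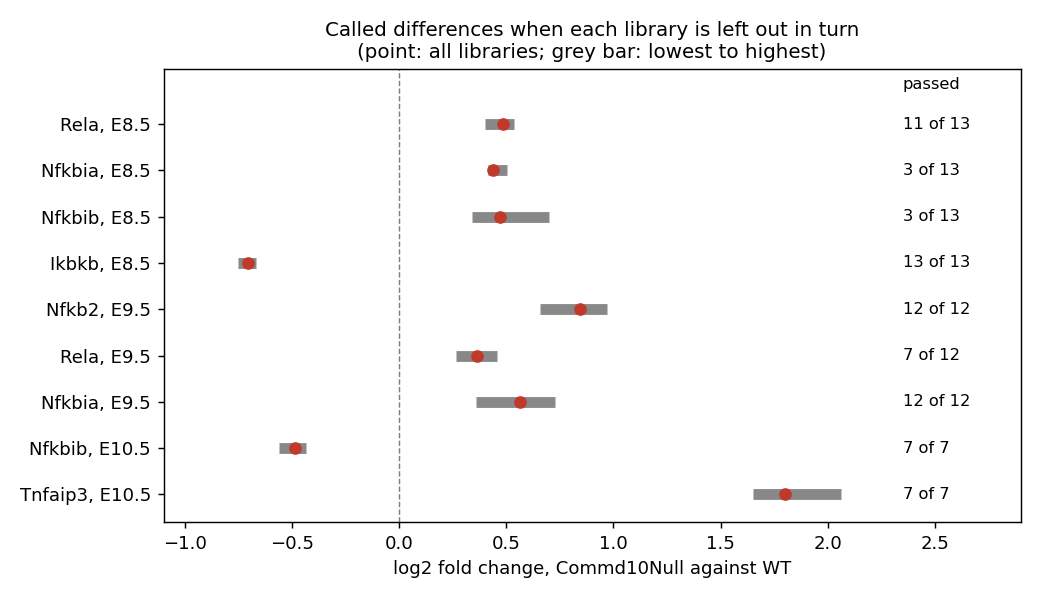
The 9 called differences between Commd10Null and WT, as the log2 fold change with all libraries (point) and its lowest and highest value when each library of the comparison is left out in turn (bar), with the number of those fits that passed. Ikbkb at E8.5, Nfkb2 and Nfkbia at E9.5, and Nfkbib and Tnfaip3 at E10.5 passed in every such fit, while Nfkbia and Nfkbib at E8.5 passed in 3 of 13.

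Markers of other cell types moved with genotype in these whole embryos, and in bulk RNA fewer cells of a type and less RNA per cell cannot be told apart. At E8.5 the summed level of 20 leukocyte and NK cell markers was 21.3 to 33.6 CPM in Commd10Null and 6.45 to 13.1 CPM in WT libraries. Of the 8 tested 1 passed, the granzyme gene Gzmc (higher), and Adgre1, Itgam and Cd3e, which define macrophages, myeloid cells and T cells, had 0 counts in both groups. Ptprc, which defines leukocytes, had 7, 8 and 12 counts in the Commd10Null E8.5 libraries, against 4 counts in 1 WT E8.5 library and 0 in the other 9. The most abundant of the list, Laptm5, Coro1a and Fcgr3, averaged 2.43, 2.54 and 5.01 CPM in Commd10Null E8.5 and 1.99, 1.64 and 2.72 CPM in WT E8.5 libraries. In the same comparison 4 of 5 primitive erythroid markers rose (1 of 5 by DESeq2). The sum of the 8 markers of that list had a lowest, median and highest of 10.3, 676 and 2123 CPM in Commd10Null libraries. It was 10.2 to 448 CPM in WT E8.5 libraries, so the groups overlapped. Of decidua and placenta markers 2 of 4 rose, and of 10 markers of embryonic tissues, all of them tested, 1 rose (Epcam) and 4 fell, among them Meox1, Pax3 and Sox2. Yolk sac endoderm markers summed to 2576 to 4102 CPM in Commd10Null and 301 to 2796 CPM in WT E8.5 libraries. Of these 10 markers 1 rose at E8.5, and 7 had an unadjusted edgeR p under 0.05. At E9.5 all 10 yolk sac endoderm markers rose and 3 of 4 decidua and placenta markers rose while 1 fell. The leukocyte sum at E10.5 was 6.39 to 17.3 CPM in Commd10Null and 50.5 to 72.9 CPM in WT libraries, with 8 of 11 tested markers lower and C1qa at 0 counts in the Commd10Null libraries. Ptprc had 2, 0 and 0 counts in Commd10Null E10.5 libraries, against 10, 8, 9 and 12 counts in WT E10.5 libraries. Endothelial markers summed to 377 to 439 CPM in Commd10Null and 239 to 263 CPM in WT E10.5 libraries. Of the 9 tested, however, 3 rose (Kdr, Cdh5 and Tek) and 1 fell (Emcn), and their median log2 fold change was 0.06. Of the 10 markers of embryonic tissues 5 rose and 4 fell at E9.5, and 6 rose and 2 fell at E10.5. Their sum at E10.5 was 1620 to 2273 CPM in Commd10Null and 536 to 610 CPM in WT libraries. The 8 primitive erythroid markers all fell at E10.5. The part of these cells in the levels of the 10 genes was not tested. Both E10.5 calls of the 10 genes, Tnfaip3 and Nfkbib, were also made without WT replicate 1, the library high in endoderm markers (1.65, adjusted p = 0.0163, and -0.47, adjusted p = 0.00896).

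**Figure D4:**
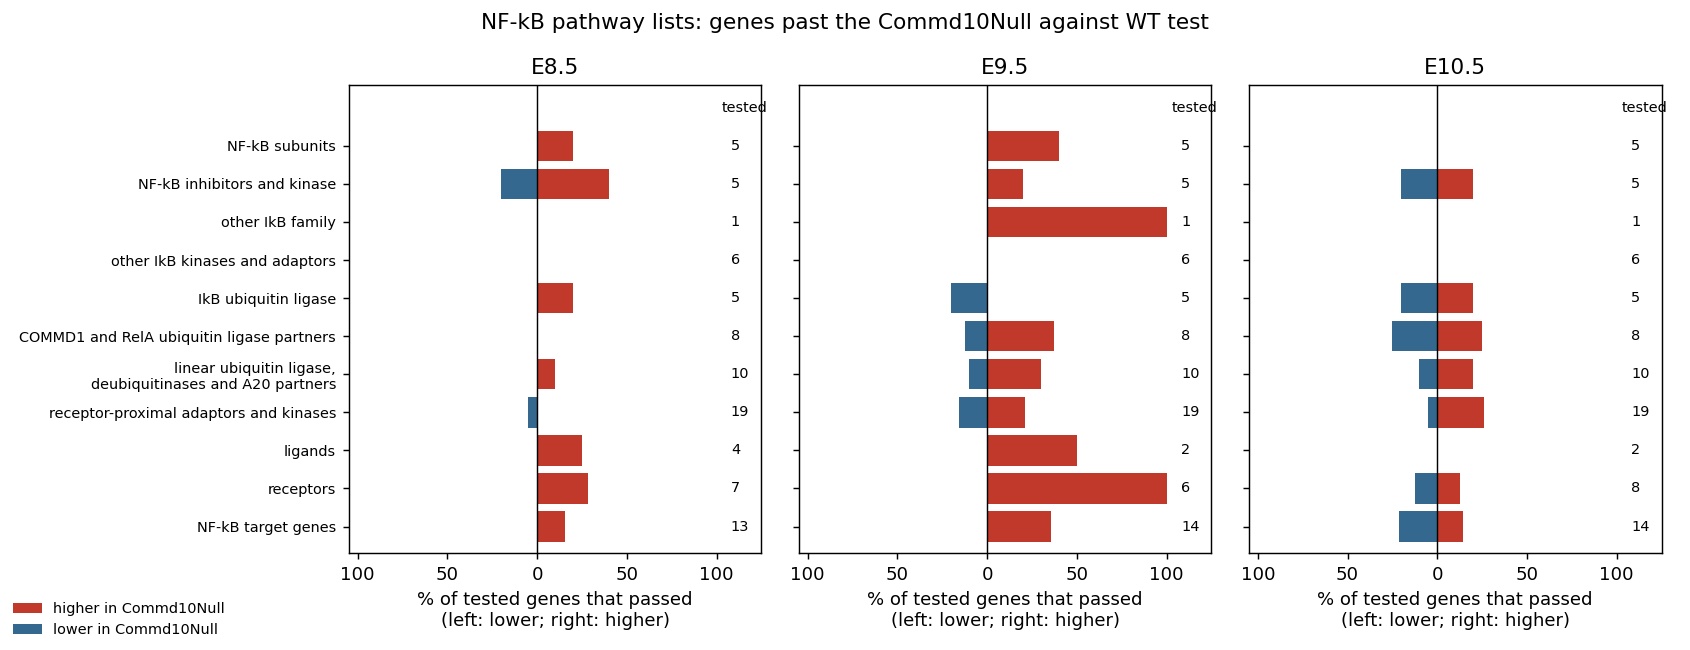
Share of the tested genes of each NF-kB pathway list that passed the Commd10Null against WT test at each stage, with higher calls to the right in red, lower calls to the left in blue and the number tested at the right edge. All 6 receptor genes tested at E9.5 were called higher (4 of 6 without scaling factors, 2 of 8 without Commd10Null replicate 2 and 3 of 8 without replicate 3), while 0 of 6 genes of the list of other IkB kinases and adaptors passed at any stage.

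The pathway lists around the 10 genes stand beside the shares of all genes called. These were 6.73% higher and 6.86% lower at E8.5. At E9.5 20.2% were higher and 17.4% lower, and the E10.5 shares were 20.9% higher and 21.4% lower. Of 15 receptor genes 6 were tested at E9.5, and these 6 rose (4 of them without scaling factors), with a median log2 fold change of 0.95, against 0.02 over all genes. That count rested on Commd10Null replicates 2 and 3, since 2 of 8 tested rose without replicate 2 and 3 of 8 without replicate 3, while 6 of 8 rose without replicate 1. Ltbr and Tnfrsf1a rose in each of these fits. Ltbr, the lymphotoxin beta receptor of the non-canonical route, had 42.2, 42.3 and 70.7 CPM in Commd10Null and 28.2 to 35.0 CPM in WT E9.5 libraries, which did not overlap (log2 fold change 0.71 ± 0.14, SE; edgeR adjusted p = 0.00128). Tnfrsf1a, the main TNF receptor, had 38.0, 38.1 and 42.9 CPM in Commd10Null and 22.0 to 32.9 CPM in WT E9.5 libraries (0.61 ± 0.13; adjusted p = 0.00146). The remaining 4, Tnfrsf1b, Tnfrsf12a, Eda2r and Cd40, were at low levels. Tnfrsf12a did not pass the filter on low counts without Commd10Null replicate 2 or 3. A gene that passes the filter through the group where it is high can hardly be called lower. The count of 6 of 6 is therefore partly set by the filter. At E8.5 Ltbr (1.06 ± 0.22) and Tnfrsf1a (0.51 ± 0.16) were the 2 of 7 that passed, both higher. At E10.5 Ltbr was lower, with 25.3, 27.1 and 23.5 CPM in Commd10Null against 54.9, 46.3, 47.0 and 49.9 CPM in WT libraries, and a difference of -0.96 ± 0.11 on the log2 scale (edgeR adjusted p = 1.27e-05). Eda2r, a receptor for an ectodysplasin form, was the other of 8 that passed at E10.5 (2.41 ± 0.54, higher). Of 12 ligand genes few passed the filter: Eda rose at E8.5 (1.16 ± 0.37, 1 of 4 tested) and Tnfsf12 at E9.5 (1.68 ± 0.56, 1 of 2; not called without Commd10Null replicate 2 or 3), and 0 of 2 passed at E10.5 by edgeR or DESeq2, with 0 at an unadjusted edgeR p under 0.05.

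Between receptors and the IkB kinase, 1 of 19 adaptor and kinase genes passed at E8.5, 4 rose and 3 fell at E9.5, and 5 rose and 1 fell at E10.5. Without scaling factors these became 2 and 5 at E9.5, where the list's median changed sign (-0.05, against 0.16), and 3 and 3 at E10.5. Without Commd10Null replicate 3, 2 rose and 2 fell at E9.5 and the median was -0.13, and without WT replicate 1, 3 of 18 rose and 1 fell at E10.5. Map3k7, which encodes TAK1, the kinase that activates the IkB kinase, fell at E8.5 (-0.43 ± 0.12) and E9.5 (-0.49 ± 0.12), whereas Tab3, a TAK1 adaptor, rose at E9.5 (1.22 ± 0.20) and E10.5 (1.54 ± 0.19). Malt1, a protease of the CARD-BCL10-MALT1 complex, rose at E9.5 (1.90 ± 0.34). Traf3, a brake on the non-canonical route, had 9.70, 8.04 and 9.30 CPM in Commd10Null E10.5 libraries, against 17.9, 16.6, 21.5 and 18.7 CPM in WT E10.5 libraries, with no overlap and a log2 fold change of -1.04 ± 0.17 (edgeR adjusted p = 0.000204). Of 6 tested genes of the list that holds Chuk, the other catalytic subunit of the IkB kinase, and Ikbkg, the regulatory subunit, 0 passed at any stage by edgeR or by DESeq2 (1 rose at E9.5 without Commd10Null replicate 1), and 3 at E8.5, 0 at E9.5 and 1 at E10.5 had an unadjusted edgeR p under 0.05. Over the 3 stages Chuk had log2 fold changes of 0.09, -0.14 and -0.09, and Ikbkg 0.39 (unadjusted p = 0.0489 by edgeR, adjusted p = 0.165), 0.05 and -0.19.

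Among genes for the ubiquitin steps, Rbck1, a subunit of the linear ubiquitin ligase also called HOIL-1, rose at all 3 stages (0.36 ± 0.10, 0.57 ± 0.11 and 0.50 ± 0.14). Cyld, a deubiquitinase that restrains NF-kB, fell at E9.5 (-0.44 ± 0.15) and E10.5 (-0.69 ± 0.16). Tnip1, which encodes a partner of A20, had 36.1, 28.8 and 32.1 CPM in Commd10Null and 11.3 to 20.5 CPM in WT E9.5 libraries (1.16 ± 0.15; edgeR adjusted p = 4.46e-05). Of the 10 genes of that list 1 rose at E8.5, 3 rose and 1 fell at E9.5, and 2 rose and 1 fell at E10.5. In the ligase that ubiquitinates IkB, 1 of 5 rose at E8.5 (Btrc, the substrate receptor, 0.72 ± 0.19), 1 fell at E9.5 (Skp1a, -0.28 ± 0.09) and 1 rose and 1 fell at E10.5 (Cul1, 0.26 ± 0.09, and Skp1a, -0.60 ± 0.08). Of 8 genes for COMMD1 and the partners with which it acts on RelA, 0 passed at E8.5 by edgeR or DESeq2 (2 had an unadjusted edgeR p under 0.05), 3 rose and 1 fell at E9.5, and 2 rose and 2 fell at E10.5. Commd1 had 9.29, 43.6 and 53.8 CPM in Commd10Null and 45.4 to 78.2 CPM in WT E9.5 libraries, with replicate 1 far below the others (-0.89 ± 0.33; edgeR adjusted p = 0.0468), and a log2 fold change of -0.32 ± 0.12 at E10.5 (adjusted p = 0.0442). Commd1 at E9.5 had a log2 fold change of -0.45 without replicate 1 (adjusted p = 0.0446), missed the threshold without replicate 2 (0.0523), and Cyld missed it without replicate 2 (0.0959) or 3 (0.0589). Skp1a missed it at E9.5 without replicate 1 (0.0882) or 2 (0.0561), and Cul1 at E10.5 without WT replicate 1 (0.0953). Of the COMMD1 list 2, 2 and 1 rose at E9.5 without Commd10Null replicates 1, 2 and 3 in turn, and of the Rbck1 list 1 rose at E10.5 without WT replicate 1. Without scaling factors the 3 higher calls of the COMMD1 list at E9.5 and the 2 higher calls of the Rbck1 list at E10.5 were not made.

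Of 30 NF-kB target genes 13 were tested at E8.5 and 14 at the later stages. At E8.5, 2 rose (Irf1 and Junb) and 0 fell, at E9.5, 5 rose (Ier3, Bcl2l1, Irf1, Junb and Gadd45b) and 0 fell, and at E10.5, 2 rose (Ier3 and Mmp9) and 3 fell (Vcam1, Cd83 and Icam1). The median log2 fold change of the list was 0.20, 0.71 and 0.16 at the 3 stages, and 0.17 at E9.5 without Commd10Null replicate 3, where 4 of 14 rose and 1 fell and Junb missed the threshold (0.44, adjusted p = 0.294). Without Commd10Null replicate 2, 5 of 15 rose and 1 fell at E9.5, and DESeq2 called 4 higher and 0 lower there. Without WT replicate 1, 1 of 13 rose and 2 fell at E10.5. Leaving out scaling factors gave 5 higher and 1 lower at E9.5, and 2 higher and 4 lower at E10.5. Ier3, an early response gene, had 10.2, 34.8 and 20.0 CPM in Commd10Null and 2.88 to 6.65 CPM in WT E9.5 libraries (2.39 ± 0.29; edgeR adjusted p = 1.82e-05). At E10.5 it had 20.0, 33.8 and 15.0 CPM in Commd10Null, against 4.54, 5.29, 3.85 and 4.61 CPM in WT libraries (2.33 ± 0.26; adjusted p = 5.75e-06). Irf1, an interferon regulatory factor, had 14.1, 10.51 and 34.0 CPM in Commd10Null and 2.69 to 9.95 CPM in WT E8.5 libraries (1.93 ± 0.36; edgeR adjusted p = 0.00377). Vcam1, an adhesion molecule of endothelium and other cells, had 11.9, 9.64 and 10.2 CPM in Commd10Null, against 34.2, 34.7, 33.9 and 26.0 CPM in WT E10.5 libraries (-1.60 ± 0.16; adjusted p = 1.90e-06). Cd83 is a marker of activated leukocytes, and it fell at E10.5 (-3.27 ± 0.53). The part of leukocytes in that fall was not tested. Nfkbiz, a nuclear IkB family member, was the 1 of 3 other IkB genes tested, with 0.547, 5.62 and 24.8 CPM in Commd10Null and 0.615 to 1.81 CPM in WT E9.5 libraries (2.97 ± 0.58; edgeR adjusted p = 0.000987). Replicate 1 lay below all WT libraries and the other 2 above them, and without replicate 3 the log2 fold change was 1.22 (adjusted p = 0.0854).

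Beside Ikbkb, 2 of the 10 genes spanned at least 1 log2 unit between group means. Tnfaip3 spanned 2.31, from the highest mean in Commd10Null E10.5 (3.19 ± 0.534 CPM, SD, n = 3) to the lowest in WT E9.5 (0.527 ± 0.397 CPM, n = 9), and each neighbour in the order of its groups overlapped. Its nearest patterns were those of Gm2011 (root mean square difference 0.14), Trp53cor1 (0.21) and Atxn1 (0.24). Nfkbie spanned 1.70, with the lowest mean in Commd10Null E8.5 (0.921 ± 1.37 CPM, n = 3), the highest in WT E9.5 (2.17 ± 0.738 CPM, n = 9) and all 3 Commd10Null means below all 3 WT means. Its nearest patterns were those of Emid1 (0.10), Ephb3 (0.11) and Gprasp1 (0.12). For the other 7 genes the span was between 0.32 (Rel) and 0.93 (Nfkb2).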

How the data were processed

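RNA was measured in 32 libraries of 3′ tags (Lexogen QuantSeq 3′ mRNA-Seq FWD), 7025188 to 9069005 counts each. What the authors deposited is a single table of raw, unscaled counts by Ensembl identifier. They trimmed the reads (BBDuk in the study's methods, Trimmomatic 0.35 in the submitters' processing notes) and used STAR to align them against coding regions (mm10). No source used here gives the counter, whether it used strand, or its annotation, so reads of overlapping genes could be counted for either. All identifiers entered the library sizes, and those without a symbol held 13.5% of the counts, nearly all in 1 identifier. The share of that identifier was 18.8 to 22.8% in Commd10Null and 15.0 to 19.8% in WT libraries at E8.5. At E9.5 it was 20.2 to 22.1% and 4.17 to 8.83%, and at E10.5 17.3 to 20.3% and 2.98 to 5.7%.

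Genotypes were compared within each stage, and stages within each genotype, with edgeR 4.0.16 in R 4.3.3 (TMM factors, filterByExpr with 10 counts, quasi-likelihood test, Benjamini-Hochberg adjustment over all genes tested, threshold 0.05). This replaces the Wald test of DESeq2 named in the study's methods, which was run as an alternative (version 1.42.0). Interactions were fitted over all 32 libraries. Standard errors are the log2 fold change divided by the square root of the F statistic. Promoters come from RefSeq (GRCm38.p6), searched for the kappa B consensus and its reverse complement, and gene positions from GENCODE for GRCm38. The code was tested on simulated data.

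The 10 genes and the pathway and marker lists were chosen with earlier results of these data known. Beyond the 10 genes, those named are up to 4 per list and stage past the genotype test with the smallest p, the 3 most abundant leukocyte markers, and the 3 most similar patterns for genes spanning at least 1 log2 unit. Chuk, Ikbkg, Commd10, Gadd45b, Icam1, Cd40, and the markers with 0 counts were named after their values were seen. Alternatives were other scalings, filters and models, a replicate block, and each library left out. No pair of libraries in a group agreed within sampling noise (chi-square per gene 3.00 to 81.6). Intervals of fold changes include the spread between libraries, and the limits of 0 counts cover counting error only.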

Additional observations from a re-analysis of the deposited data

Results flagged for a closer look

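In 4 of 30 groups of WT libraries (10 genes at 3 stages) 1 library lay far from the others by Dixon's criterion, which chance meets in about 1 of 20 groups. Nfkb2 had 7.8 CPM in WT E10.5 replicate 4, against at most 5.4 CPM in the other 3. Relb had 0.946 CPM, from 8 counts, in the same library, against at least 2 CPM in the others. Nfkbia had 79.8 CPM in WT E10.5 replicate 1, against at least 97.2 CPM in the others. Nfkbib had 65.1 CPM in WT E9.5 replicate 1, against at most 57.6 CPM in the other 8.

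The genotype difference of Nfkbib changed between stages. It was more negative at E9.5 than at E8.5 by a log2 value of -0.74, and more negative at E10.5 than at E8.5 by -0.98, in edgeR's interaction test over all 32 libraries (adjusted p = 0.00837 and 0.000788). At E10.5 Nfkbib was lower in 3 of 3 Commd10Null libraries than in every WT library, and at E8.5 it was higher in 2 of 3.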

How the results depend on the processing

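Under all alternatives together, 198 of 238 values of called genes passed again, 40 missed the threshold and 0 changed sign. Of 1085 values of genes not called 13 passed and 71 changed sign. Ikbkb at E8.5 and Nfkbib at E10.5 passed under every alternative run. Counts of the 10 genes past the genotype test were 4, 3 and 2 over the 3 stages by edgeR and by DESeq2. At E8.5 the count was 2 without scaling factors (Nfkbia and Nfkbib lost, adjusted p = 0.0537 and 0.0538), 3 with no filter on low counts (Rela lost, 0.0521) and 1 to 4 with 1 library left out (1 without Commd10Null replicate 1 or 3). At E9.5 it was 2 to 5 with 1 library left out, the 5 without Commd10Null replicate 1, and Rela missed the threshold with no filter (0.118). At E10.5 it was 1 with at least 50 counts in 3 libraries, which removed Tnfaip3, 1 in the model of all 32 libraries, and 2 to 4 with 1 library left out. The count was 0 to 1 in the later WT step and 0 to 2 for the E9.5 interaction with 1 library left out.

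Of all genes, 1876 were called at E8.5 (390 to 2280 with 1 library left out) and 5724 at E10.5 (3651 in the model of all libraries). In the Commd10Null step to E9.5 edgeR called 0, DESeq2 60 and edgeR with no filter 66, and 0 to 276 with 1 library left out. In the step to E10.5 edgeR called 4, DESeq2 355, edgeR with no filter 288, 9 with the stricter filter, 1 without scaling factors or without the most abundant identifier, and 0 to 37 with 1 library left out. The E9.5 interaction had 1677 calls, 1090 to 2311 with 1 library left out. Leaving out scaling factors moved the median log2 fold change of all genes by -0.20 at E9.5 and -0.14 at E10.5, and 33.5% and 35% of calls were then higher, against 53.7% and 49.4%. It moved the median by 0.12 in the WT step to E9.5, with 65.9% of calls higher against 49.3%, and by -0.14 for the E9.5 interaction, with 35% more positive against 56%. In the later WT step and the E10.5 interaction 64.3% and 44% were higher, against 49.1% and 55.3%. The cause was not tested.

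Libraries sharing a replicate number varied together little (correlation of deviations -0.12 to 0.16). Litters were not stated, so these correlations cannot exclude a pairing. With the replicate number as a block the count of the 10 genes was 2 at E8.5, 0 at E9.5 and 2 at E10.5, and all genes called were 607 at E9.5 and 22 in the Commd10Null step to E10.5. In the genotype comparisons this model drops the WT libraries whose number no Commd10Null library shares. Its lower counts therefore cannot tell a pairing from the loss of those libraries. Relb, Rel, Nfkbie and Tnfaip3 had 0 to 39 counts per library, so single libraries hold little information on them.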
